A study of Homo sapiens with 6 samples.

Results

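The EGF receptor family and its ligands were followed in U251 cells, an established human glioma line, after knockdown of TEAD3. The family was taken as 10 genes by symbol, the receptors EGFR, ERBB2, ERBB3 and ERBB4 and the ligands AREG, EREG, HBEGF, TGFA, BTC and NRG1. All 10 were among the 60612 gene identifiers of the count table, and all 10 were among the 17723 genes that passed the filter on low counts. The data are RNA-seq read counts per gene from polyadenylated RNA of 6 libraries. The 3 control libraries carry the label normal control, and the other 3 carry the label TEAD3 knockdown. Transfection was transient, a plasmid vector and an siRNA are both mentioned, the knockdown was checked at about 36 h, and what the control cells received is not stated. Cells of both groups were grown in medium with foetal bovine serum. Separate cultures are not named for the replicates, so every p-value measures only how these libraries vary, and that spread may be technical.

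The 4 ERBB receptors are tyrosine kinases of the cell surface that signal as pairs. EGFR binds EGF, amphiregulin (AREG), transforming growth factor alpha (TGFA), epiregulin (EREG), betacellulin (BTC) and heparin-binding EGF (HBEGF), and the last 3 also bind ERBB4. ERBB3 and ERBB4 bind neuregulin 1 (NRG1), ERBB2 has no known ligand and serves as a partner, and ERBB3 has little kinase activity of its own. The ligands are made as membrane-anchored precursors, most of which are released by ADAM proteases, and the receptors feed the RAS-ERK and PI3K-AKT pathways. EGFR is often amplified in glioblastoma. TEAD3 is a DNA-binding partner of the coactivators YAP and TAZ, and AREG is a known YAP target in other cells.

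Libraries held between 58344026 and 64808615 counts, so that 3 counts, taken here as the floor for counting error, correspond to between 0.0457 and 0.0529 CPM. CPM are counts-per-million after TMM scaling, and values of 3 libraries are given in the order of replicates 1, 2 and 3, with means ± SD. TEAD3 itself was at 14.9, 20.3 and 21 CPM in the controls against 4.7, 8.35 and 6.08 CPM in the knockdown. Every knockdown library was below every control (log2 fold change -1.55, SE 0.218, edgeR adjusted p = 0.0114). The TEAD3 call was lost in 5 of 17 alternative fits, among them those without control replicate 3, knockdown replicate 1 or knockdown replicate 3 (edgeR adjusted p of 0.0541, 0.0532 and 0.0938). The glioma label was checked on markers: VIM, NES and SOX2 were at 4480, 185 and 150 CPM in controls, while the astrocyte markers GFAP and S100B were at 1.46 and 0.374 CPM. OLIG2 was at 0 in all libraries, as were 4 of 7 myeloid and lymphoid markers, and the epithelial keratin KRT8 was at 206 CPM. The summed level of 10 glioma and astroglial markers, most of it VIM, was 5340 to 5910 CPM in the controls and 4410 to 4970 CPM in the knockdown, and its part in the results was not tested. The markers of this list did not move together. VIM, SOX2, GFAP and SOX9 were lower in the knockdown without overlap of the groups. FABP7 (means of 2.43 and 4.11 CPM) and SLC1A3 (4.3 and 6.57 CPM) were higher without overlap, and NES, S100B, CD44 and NFIA overlapped. Groups without overlap were seen in 21.6% of all tested genes. No marker of this list had an edgeR adjusted p below 0.143, the value of GFAP, while SLC1A3 had 0.0481 by DESeq2. Summed levels of the 7 immune markers, nearly all from CD68, were 125 to 155 CPM in controls and 124 to 145 CPM in the knockdown. Fewer cells of one kind and less RNA per cell cannot be told apart in such bulk samples.

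None of the 10 members was called by edgeR, where called means a Benjamini-Hochberg adjusted p under 0.05 over all genes tested. Of all tested genes 0.655% were called. At an unadjusted p under 0.05 there was 1 member, NRG1, or 10% of the members, against 15.6% of all tested genes. DESeq2 and limma-voom also called no member, DESeq2 gave AREG no adjusted p, and it called 4.92% of all tested genes. The fitted fold changes were above 0 for 5 members and below 0 for 5, with a median log2 value of 0.02 where the median over all genes was 0. NRG1 was also the only member whose control and knockdown libraries did not overlap, a pattern shown by 21.6% of all tested genes.

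**Figure D1:**
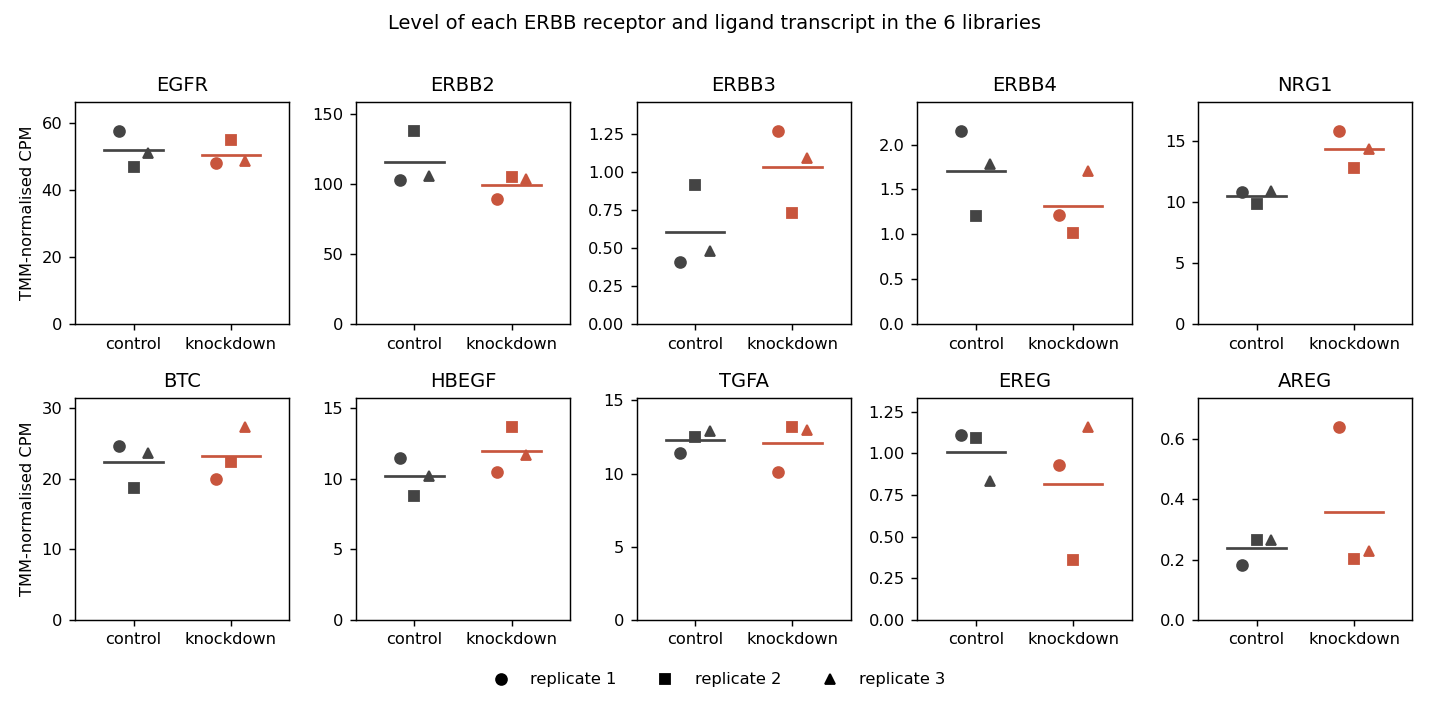
Level of each member in every library (y axis, TMM-normalised CPM from 0; each panel has its own scale; grey, control; red, knockdown; symbols, replicate number, which does not pair libraries; bars, group mean). Knockdown and control libraries overlap in 9 panels, and in the NRG1 panel the lowest knockdown library, 12.8 CPM, is above the highest control, 10.9 CPM.

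Among the receptors, EGFR and ERBB2 transcripts were abundant and ERBB3 and ERBB4 transcripts were scarce. EGFR (ENSG00000146648) spans chromosome 7 from 55019021 to 55211628 (GRCh38, plus strand). The controls held 57.5, 46.9 and 51 CPM of EGFR and the knockdown libraries 48.1, 54.8 and 48.5 CPM. The knockdown libraries all lay within the range of the controls. EGFR had a fitted log2 fold change of -0.04 (SE 0.113, edgeR adjusted p = 0.924), and the 95% interval of the fold, 0.82 to 1.16, leaves room for a modest change either way. The antisense gene EGFR-AS1, whose exon overlaps EGFR, had at most 17 counts in any library.

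RefSeq lists a second start for EGFR inside the gene body, and the 300-base windows from 250 bases before to 50 bases after each start differ in base composition, with 75.3% GC at the first and 42% at the second. The stretch below is shown because it holds 1 of the family's 2 matches to the TEAD binding motif GGAATG, read on the opposite strand as CATTCC and printed in capitals. It lies at chr7:55109714-55109741 of GRCh38.p14, and its match begins 114 bases before the second start.
EGFR second start: acaaattctatCATTCCtttgggcctag
The same window held 2 matches to the AP-1 motif TGANTCA and 2 to the TATA box TATAAA, and the first window held 3 GC boxes (GGGCGG) and none of the other 3 motifs. Both strands were searched, and among 35116 RefSeq promoter windows of the same length 14% held the TEAD motif, 7.71% the AP-1 motif, 11.5% the TATA box and 45% the GC box. The gene counts do not tell which start was used.

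ERBB2 (ENSG00000141736, chromosome 17 from 39687914 to 39730426, plus strand) had the highest level of the family. It was at 103, 138 and 106 CPM in controls against 89.2, 105 and 104 CPM in the knockdown, means of 115 ± 19.3 and 99.4 ± 8.82 CPM. Control replicate 2 stood above the other 5 libraries. The log2 fold change of -0.21 (SE 0.128, edgeR adjusted p = 0.453) was -0.07 without control replicate 2. Control replicate 2 was also the library whose deviations over 17505 genes, which are not independent replicates, followed GC content most closely. Its Spearman correlation with GC was 0.462, against -0.374 in control replicate 1 and between -0.14 and 0.105 in the other 4 libraries. A correction for transcript length and GC content gave -0.17 for ERBB2 (edgeR adjusted p = 0.209). The unadjusted edgeR p was 0.12 before this correction and 0.0376 after it. The part of GC content in the ERBB2 result was not tested. Exons of ERBB2 overlap those of PGAP3 and MIEN1 on the opposite strand, and its counts are uncertain if strand was not used in counting.

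ERBB3 (ENSG00000065361, chromosome 12 from 56076799 to 56103505, plus strand), the receptor with little kinase activity, was near 1 CPM or below. The controls had 27, 52 and 29 ERBB3 counts (0.412, 0.917 and 0.483 CPM) and the knockdown libraries 79, 47 and 71 (1.27, 0.734 and 1.09 CPM). Knockdown replicates 1 and 3 were above every control, and knockdown replicate 2 lay below control replicate 2. Exons of ERBB3 overlap those of ENSG00000257411 on the same strand, where strand cannot assign a read, so these counts are uncertain. ENSG00000257411 had 0 counts in all libraries. ERBB3 had a log2 fold change of 0.77 (SE 0.443, edgeR adjusted p = 0.437), with a 95% interval of the fold from 0.87 to 3.35. It was 1.2 without control replicate 2 (edgeR adjusted p = 0.161) and 0.37 with a covariate for RNAs that lack a poly(A) tail (0.859). The summed level of 5 such RNAs, RN7SL1, RN7SL2, RN7SK, RPPH1 and RMRP, was 32.7, 78.5 and 36.1 CPM in controls against 117, 36.2 and 161 CPM in the knockdown. Control replicate 2 was thus the highest control, and knockdown replicates 1 and 3 the highest libraries, in both measures, and the part of these RNAs in the result was not tested.

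ERBB4 (ENSG00000178568, chromosome 2 from 211375717 to 212538841, minus strand), a neuregulin receptor that is expressed in brain, was at 2.15, 1.2 and 1.78 CPM in the controls. In the knockdown it was at 1.22, 1.01 and 1.71 CPM. The groups overlapped, and 1 knockdown library was below every control. ERBB4 had a log2 fold change of -0.38 (SE 0.331, edgeR adjusted p = 0.644), which stayed below 0 in all 17 alternative fits, between -0.61 and -0.18.

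Among the ligands, NRG1 came closest to a difference between the groups. NRG1 (ENSG00000157168) lies on chromosome 8 from 31639386 to 32767959 on the plus strand and encodes the main ligand of ERBB3 and ERBB4. The controls held 10.8, 9.84 and 10.9 CPM and the knockdown libraries 15.8, 12.8 and 14.3 CPM. All 3 knockdown libraries were above all 3 controls. Means of 10.5 ± 0.586 and 14.3 ± 1.52 CPM (SD, n = 3 per group) differed 1.36-fold with a 95% interval of 1.1 to 1.69. The log2 fold change was 0.45 (SE 0.143), and it was not called (edgeR adjusted p = 0.173).

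The NRG1 fold change was above 0 in all 17 alternative fits, between 0.37 and 0.52 on the log2 scale, and in none was it called. The lowest adjusted p values were 0.0588 by edgeR after correction for length and GC, and 0.0612 in DESeq2, and the highest was 0.561 by edgeR with the covariate for RNAs that lack a poly(A) tail. The 3 genes whose profile over the 6 libraries was most like that of NRG1 were TXN (thioredoxin), RPS24 (a protein of the small ribosomal subunit) and C6orf120. Likeness was the root-mean-square difference of centred log2 CPM among the 10279 genes whose average log2 CPM reached 3, and it was 0.0424, 0.0433 and 0.0455. None of the 3 was called by edgeR (log2 fold changes 0.48, 0.45 and 0.51, edgeR adjusted p of 0.0995, 0.0857 and 0.11), while DESeq2 called all 3. The genes were chosen for likeness to NRG1 over the same libraries. Fold changes near that of NRG1 follow from this choice and are not a separate result.

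**Figure D2:**
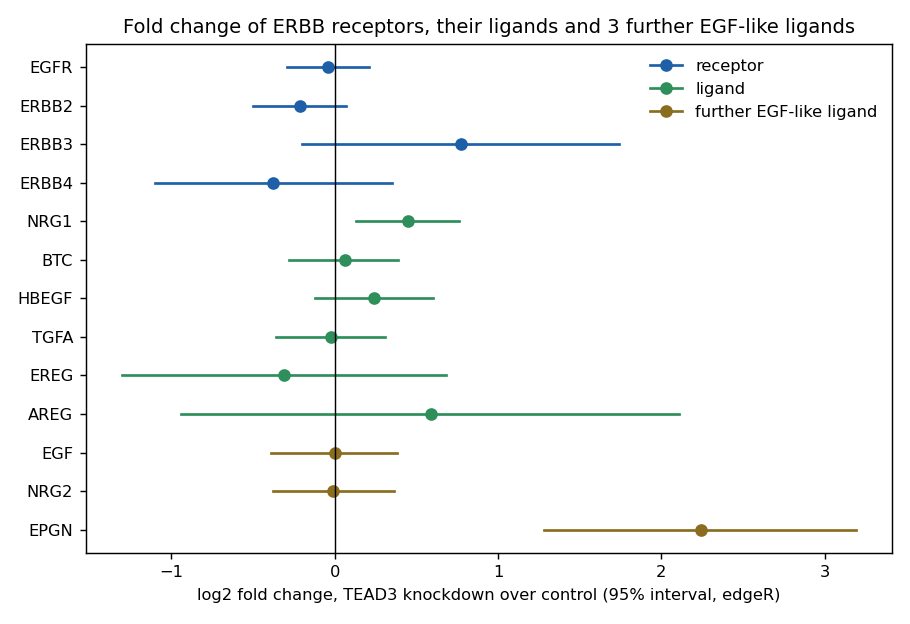
Fold change of the 10 members and of EGF, NRG2 and EPGN (x axis, log2 of knockdown over control; points, edgeR estimate; lines, 95% interval; blue, receptors; green, ligand members; brown, further ligands). The intervals of NRG1, 0.13 to 0.76, and EPGN, 1.28 to 3.19, lie above 0, and those of the other 11 genes cross 0.

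The EGFR ligands BTC, HBEGF and TGFA were present at moderate levels in both groups. BTC (ENSG00000174808, chromosome 4 from 74744759 to 74794686, minus strand) was at 24.6, 18.7 and 23.7 CPM in controls against 20, 22.4 and 27.4 CPM in the knockdown. The groups overlapped, with control replicate 2 the lowest of the 6 libraries (log2 fold change 0.06, SE 0.152, edgeR adjusted p = 0.911, fold interval 0.825 to 1.31). HBEGF (ENSG00000113070, chromosome 5 from 140332843 to 140346631, minus strand) was at 11.5, 8.81 and 10.2 CPM in controls against 10.5, 13.7 and 11.7 CPM in the knockdown. Knockdown replicates 2 and 3 were above every control and knockdown replicate 1 was not. The log2 fold change of HBEGF was 0.24 (SE 0.164, edgeR adjusted p = 0.534), above 0 in all 17 alternatives at 0.13 to 0.39. TGFA (ENSG00000163235, chromosome 2 from 70447280 to 70554193, minus strand) was at 11.4, 12.5 and 12.9 CPM in controls against 10.1, 13.2 and 13 CPM in the knockdown. Its lowest and its highest library both belonged to the knockdown (log2 fold change -0.02, SE 0.153, edgeR adjusted p = 0.974, fold interval 0.78 to 1.24).

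AREG and EREG were scarce, and the sign of each fold change rested on 1 library. AREG (ENSG00000109321, chromosome 4 from 74445134 to 74455009, plus strand) had 12, 15 and 16 counts in the controls and 40, 13 and 15 in the knockdown, or 0.183, 0.264 and 0.266 CPM and 0.642, 0.203 and 0.23 CPM. Knockdown replicate 1 alone was above the controls, and the other 2 knockdown libraries were within their range. The log2 fold change of 0.59 (SE 0.693, edgeR adjusted p = 0.749) became -0.13 without knockdown replicate 1. EREG (ENSG00000124882, chromosome 4 from 74365143 to 74388751, plus strand) was at 1.11, 1.09 and 0.832 CPM in controls against 0.931, 0.359 and 1.16 CPM in the knockdown. Knockdown replicate 2, with 23 counts against 50 to 76 in the other 5 libraries, was the lowest, and knockdown replicate 3 the highest. The log2 fold change of -0.31 (SE 0.449, edgeR adjusted p = 0.808) became 0.05 without knockdown replicate 2 and -1.03 with the covariate for RNAs that lack a poly(A) tail (edgeR adjusted p = 0.61). The fold intervals, 0.522 to 4.32 for AREG and 0.408 to 1.6 for EREG, do not exclude a 1.5-fold change.

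**Figure D3:**
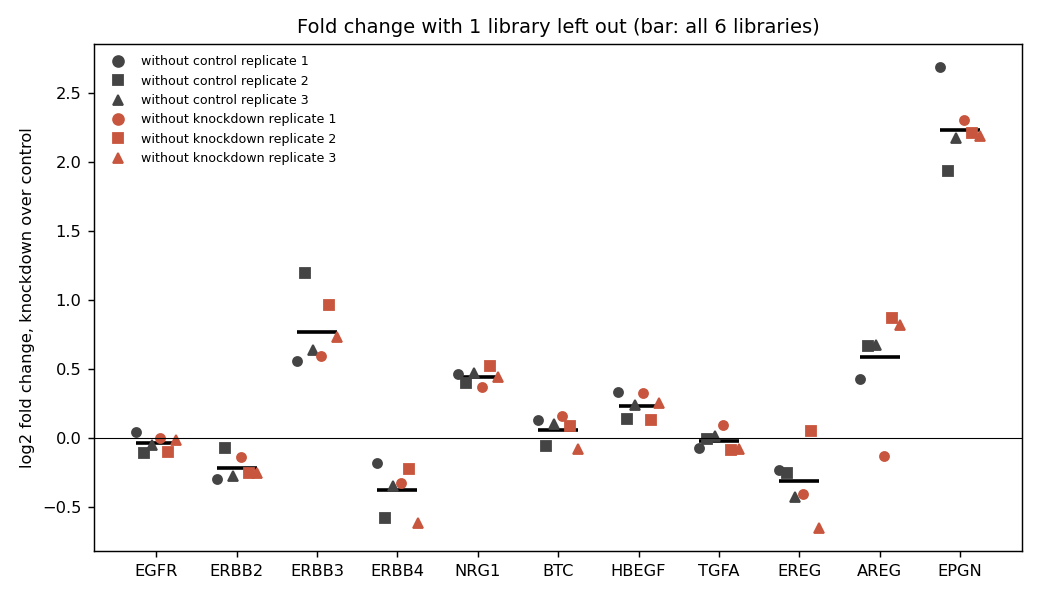
Log2 fold change of the 10 members and EPGN with all 6 libraries (black bars) and with 1 library left out (symbols; grey, a control left out; red, a knockdown library left out). AREG goes from 0.59 to -0.13 without knockdown replicate 1 and EREG from -0.31 to 0.05 without knockdown replicate 2, while NRG1 stays between 0.37 and 0.52 and EPGN between 1.94 and 2.69.

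A further EGFR ligand next to these genes rose. EPGN, which encodes epigen, is the neighbour of EREG and AREG on chromosome 4, and EPGN, EREG, AREG and BTC lie in this order over 486.2 kb with no other protein-coding gene between them in GENCODE 29. EPGN (ENSG00000182585, 74308473 to 74315307, plus strand) had 33, 10 and 18 counts in the controls and 87, 103 and 108 counts in the knockdown, or 0.503, 0.176 and 0.3 CPM and 1.4, 1.61 and 1.65 CPM. Every knockdown library was above every control. The means were 0.326 ± 0.165 and 1.55 ± 0.137 CPM, 4.71-fold with a 95% interval of 2.44 to 9.1 (log2 fold change 2.24, SE 0.432, edgeR adjusted p = 0.0473, and 0.000587 by DESeq2). The call rested on a narrow margin: EPGN was called in 8 of 17 alternatives, and not when control replicate 3 was left out (edgeR adjusted p = 0.171), nor knockdown replicate 1, 2 or 3 (0.154, 0.109 and 0.25). It was also not called by limma-voom (adjusted p = 0.0611), and the replicate block, library size alone, no filter and the poly(A) covariate also ended the call. In the same cluster EREG, AREG and BTC had log2 fold changes of -0.31, 0.59 and 0.06 and were not called, and the difference between EPGN and these genes was not tested.

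The starts of the cluster genes are shown because EPGN, EREG and AREG, but not BTC, each held the TATA box TATAAA (capitals) at a like distance, 29, 32 and 29 bases before the RefSeq start. Of all promoter windows of this length 11.5% held this motif anywhere. The stretches lie at chr4:74308430-74308457, chr4:74365102-74365129 and chr4:74445096-74445123 of GRCh38.p14, plus strand.
EPGN: gcttcatgaaaTATAAAtgcaacaaaga
EREG: gggctccctagTATAAAgttcgcagcac
AREG: ccggctgagccTATAAAgcggcaggtgc
In EREG a match to the TEAD motif, again as CATTCC, began 175 bases before the start, at chr4:74364959-74364986.
EREG upstream: agacattttttCATTCCtcaaccactac
Windows were matched for 8 of the 10 members, 10 windows in all, and not for ERBB3 and NRG1. The 2 windows with a TEAD match were those of EREG and of the second EGFR start, whose genes were not called. A match is a run of letters and not a measured binding site.

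The other ligands of the family outside the 10 members were EGF, NRG2, NRG3 and NRG4. EGF, the ligand for which the family is named, was at 20.6, 14.4 and 19.6 CPM in controls against 16.1, 16.3 and 22.2 CPM in the knockdown, with a fold interval of 0.765 to 1.3 (edgeR adjusted p = 0.997). NRG2 was at 8.97 ± 0.753 and 8.91 ± 1.31 CPM (edgeR adjusted p = 0.989). NRG3 had 0 counts in all 6 libraries, which allows up to 3 counts each. NRG4 had 0 counts in the controls and 0, 14 and 4 in the knockdown, and it was not tested. Exons of NRG4 overlap FBXO22 on the opposite strand, and those of NRG2 and NRG3 an antisense gene, so these counts are uncertain.

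To compare levels between genes, CPM were divided by the length of all annotated exons of the gene in kilobases. By this measure ERBB2 was highest in controls at 11.2 ± 1.87 CPM per kb, followed by BTC at 7.94 ± 1.12, EGFR at 4.14 ± 0.425, HBEGF at 3.38 ± 0.452, TGFA at 2.48 ± 0.162 and NRG1 at 0.927 ± 0.0517. EREG, AREG, ERBB4 and ERBB3 followed at 0.177 ± 0.0274, 0.144 ± 0.0289, 0.131 ± 0.0368 and 0.0668 ± 0.0302 CPM per kb. The control ranges of EGFR and HBEGF overlapped, as did those of each neighbouring pair among the last 4, while the other neighbours were separate in all 3 controls. NRG1 stood 5.24-fold above EREG, the largest step. With the longest annotated transcript as the length all 10 members had the same rank, with ERBB2 at 23.4 and NRG1 at 1.77 CPM per kb.

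In the knockdown the first 6 members had the same order, with ERBB2 at 9.63 ± 0.855 and NRG1 at 1.26 ± 0.134 CPM per kb. ERBB2 and EGFR together made up between 98.2% and 98.9% of the receptor level per kb in every library, and BTC between 48.3% and 54.5% of the level of the 6 ligand members. The ratio of ERBB2 to EGFR per kb was 2.17, 3.56 and 2.52 in the controls and 2.25, 2.32 and 2.61 in the knockdown. Control replicate 2 was apart from the other 5 libraries in this ratio. The longest transcripts of ERBB2 and EGFR have 57.5% and 47.5% GC, and the part of GC content in this ratio was not tested. The NRG1 share of the ligand level was 5.9%, 6.52% and 6.14% in the controls and 9.58%, 6.85% and 7.09% in the knockdown, so that the groups did not overlap. The share is built from the same NRG1 counts as above and is not a second result. Its total leaves out EGF and NRG2, at 2.97 and 1.99 CPM per kb in the controls.

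**Figure D4:**
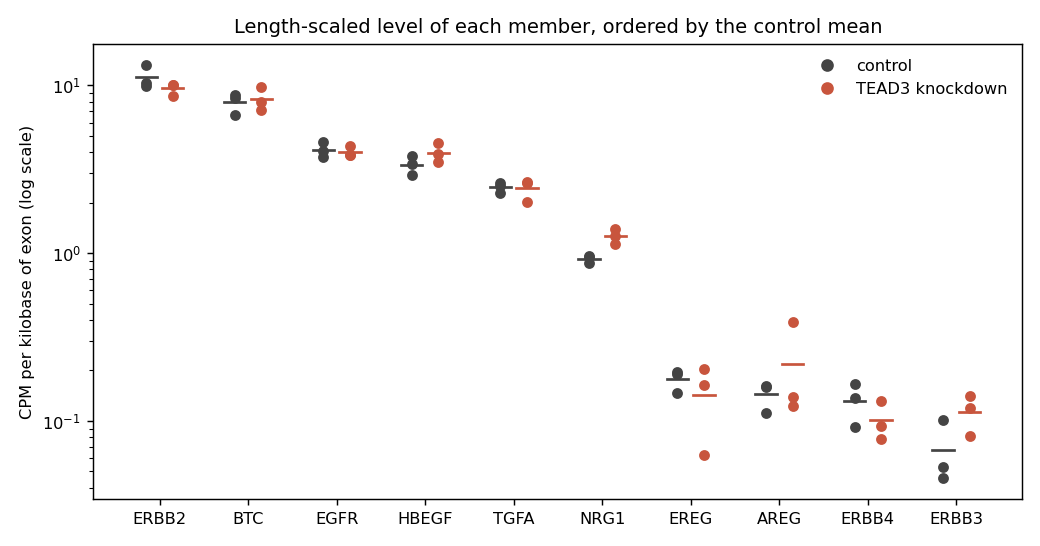
Level of each member per kilobase of exon (y axis, CPM per kb, log scale) in the 3 control (grey) and 3 knockdown (red) libraries, ordered by the control mean (bars, group mean). ERBB2 is highest at 11.2 CPM per kb, and the step from NRG1 at 0.927 to EREG at 0.177 separates 6 members from the 4 scarce ones.

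Other genes of the pathway were described by role, in 9 lists that hold 157 genes, of which 150 were tested. Of these 2 rose, EPGN and DUSP4, 1 fell, AXL, and 147 were not called, where edgeR called 0.655% of all tested genes. The median log2 fold change was -0.08, and 18% had an unadjusted p under 0.05, 5 higher and 22 lower, against 15.6% of all genes, of which 1444 were higher and 1317 lower. DESeq2 called 3 higher and 8 lower, where it called 488 higher and 384 lower of all tested genes.

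For ligand release, none of 13 shedding genes was called by edgeR or DESeq2 (median log2 fold change 0.05). At an unadjusted p under 0.05, 2 were lower, or 15.4% of the list, against 15.6% of all tested genes in either direction. ADAM17, the main sheddase of TGFA, AREG and HBEGF, was at 49.2, 41.4 and 45.4 CPM in controls against 45.7, 43.1 and 50.8 CPM in the knockdown (edgeR adjusted p = 0.923). ADAM17 was chosen for its role after its value was seen, and its exons overlap IAH1 on the opposite strand. The smallest p values belonged to the protease gene ADAM19 (log2 fold change -0.33), TSPAN14 (-0.23), a tetraspanin partner of ADAM10, and CNIH4 (0.24), a cargo receptor of the secretory pathway, with edgeR adjusted p of 0.235, 0.309 and 0.327. None of 15 co-receptors and ligand partners was called by edgeR. DESeq2 called 1, higher in the knockdown, where it called 4.92% of all tested genes. An unadjusted p under 0.05 was reached by 1 gene above and 1 below 0, or 13.3% of the list. In that list GPC1, a glypican, and ITGB4, an integrin subunit, had log2 fold changes of -0.34 and -0.36 (edgeR adjusted p of 0.232 and 0.342).

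Of 19 tested adaptor genes, which couple the activated receptors to their pathways, 17 had a log2 fold change below 0, as did 50.2% of all tested genes, and the median was -0.21. None was called by edgeR or DESeq2. At an unadjusted p under 0.05 there were 5 lower and 0 higher, where 7.43% of all tested genes were lower. In 6 of the 19 the knockdown libraries were all below the controls, a pattern of 10.6% of all tested genes. GRB2, the adaptor that brings SOS to the receptor, was at 194, 203 and 193 CPM in controls against 170, 166 and 169 CPM in the knockdown (log2 fold change -0.23, SE 0.0874, edgeR adjusted p = 0.252). SHC1 and GAB2 had log2 fold changes of -0.28 and -0.36 (edgeR adjusted p of 0.251 and 0.209).

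Genes of receptor inhibition and turnover gave 0 calls of 25 by edgeR. At an unadjusted p under 0.05 there were 4, all lower, or 16% of the list. Of all tested genes 15.6% passed in either direction and 7.43% were lower. DESeq2 called 2, also lower, where it called 4.92% of all tested genes. The DESeq2 calls were EPN2, an endocytic adaptor (log2 fold change -0.51, edgeR adjusted p = 0.067, DESeq2 0.00165), and STAM, which sorts receptors at endosomes (-0.47, 0.156, DESeq2 0.0265). EPN2 was also called by edgeR with robust dispersions (edgeR adjusted p = 0.0434), after length and GC correction (0.0153) and without control replicate 2 (0.0417). STAM was called by edgeR only without control replicate 2 (0.0349). PTPRJ, a receptor phosphatase, was at -0.27 (edgeR adjusted p = 0.239). In the RAS-ERK cascade none of 22 was called by edgeR, while DESeq2 called 3, all lower. At an unadjusted p under 0.05, 5 were lower and 0 higher, or 22.7% of the list, against the same shares of all tested genes. NRAS was at 150, 111 and 150 CPM in controls against 87.8, 96.8 and 83.8 CPM in the knockdown, with no overlap (log2 fold change -0.61, SE 0.129, edgeR adjusted p = 0.0636). The DESeq2 calls included NRAS and MAP2K1, the kinase that phosphorylates ERK (adjusted p of 0.000405 and 0.0369). NRAS was called by edgeR with robust dispersions (edgeR adjusted p = 0.0317), after length and GC correction (0.00946) and without control replicate 2 (0.0115). It was not called in the other edgeR alternatives or by limma-voom. MAP2K1 was at 51.9, 51.8 and 48 CPM in controls against 39, 40.5 and 40.2 CPM in the knockdown, again with no overlap. In the PI3K-AKT and STAT arm none of 22 was called by edgeR or DESeq2. At an unadjusted p under 0.05, 1 was lower, STAT3 (-0.24, edgeR adjusted p = 0.266), or 4.55% of the list. PDPK1 and PIK3R3 were at -0.28 and -0.19 (0.322 and 0.352). PIK3R2 had 11321, 69 and 11823 counts in the controls against 10341, 13217 and 12662 in the knockdown. With a fold interval of 0.367 to 6.35 its test says little. The cause of the low count was not tested, and exons of PIK3R2 overlap another gene on the same strand. Exons of EPN2 and SHC1 overlap another gene on each strand, those of STAM, MAP2K1, PDPK1, ADAM19, TSPAN14 and C6orf120 one or more on the opposite strand and those of PIK3R3 one on the same strand.

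**Figure D5:**
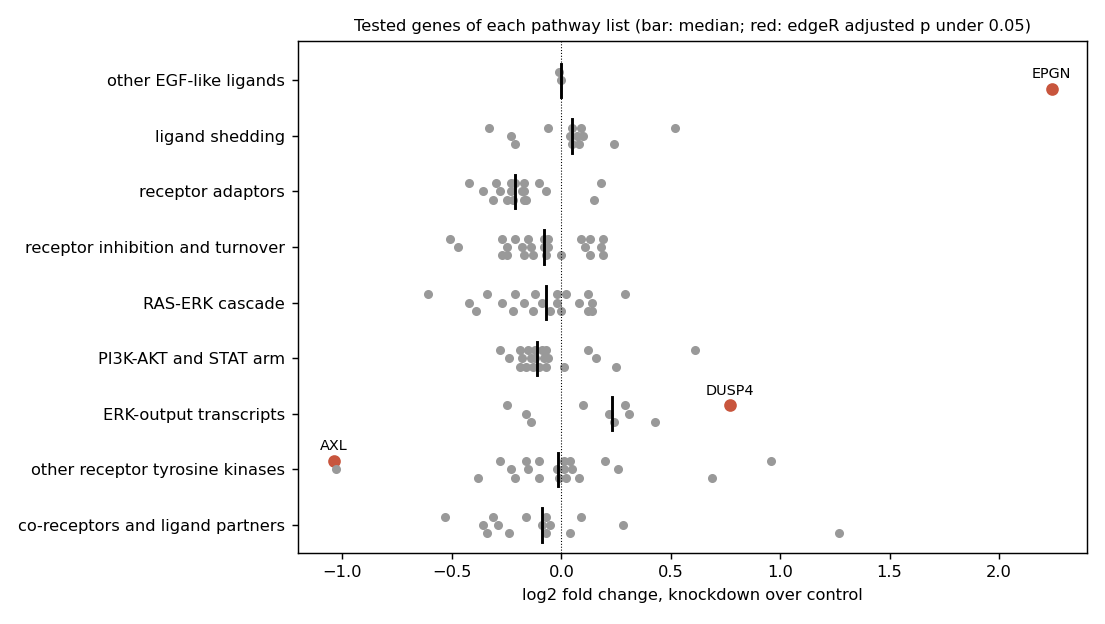
Log2 fold change of every tested gene of the 9 pathway lists (x axis, knockdown over control; points, genes; bars, list median; red with a name, edgeR adjusted p under 0.05). EPGN at 2.24, DUSP4 at 0.77 and AXL at -1.04 are the called genes, and the adaptor median lies at -0.21.

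Of 10 tested transcripts known to follow ERK activity 1 was called, where 0.655% of all tested genes were called. DUSP4, a nuclear phosphatase that acts on ERK, rose from 35.2, 48 and 35.1 CPM to 66.9, 63 and 72.2 CPM (fold change on the log2 scale 0.77, SE 0.136, edgeR adjusted p = 0.0315). DUSP4 was called in 9 of 17 alternatives. It was not called without control replicate 1 or 3 (edgeR adjusted p of 0.113 and 0.165) or without knockdown replicate 1, 2 or 3 (0.134, 0.061 and 0.214). The list median was 0.23, with 7 genes above 0, where 50.2% of all tested genes were below 0. An unadjusted p under 0.05 was reached by 2 above and 1 below 0, or 30% of the list, against 15.6% of all tested genes. Besides DUSP4 these were EPHA4 (log2 fold change 0.43) and CCND1 (-0.25), with edgeR adjusted p of 0.185 and 0.253. Exons of both overlap another gene on the opposite strand. Among 22 other receptor tyrosine kinases, edgeR called 1, AXL, and DESeq2 called 3, all lower, against 0.655% and 4.92% of all tested genes. The other DESeq2 calls were MERTK, of the same kinase family as AXL, and PDGFRA, a PDGF receptor, with log2 fold changes of -1.03 and -0.38 (DESeq2 adjusted p of 0.0457 and 0.0453, edgeR 0.16 and 0.153), and their groups did not overlap. AXL fell from 174, 203 and 201 CPM to 83.4, 114 and 83.4 CPM. Its log2 fold change was -1.04 (edgeR adjusted p = 0.00646), while EGFR and ERBB2, at -0.04 and -0.21, were not called. CCN2, a TEAD target outside these lists, was at 14.8 ± 1.72 and 27 ± 0.55 CPM (edgeR adjusted p = 0.0137). AXL was not called without knockdown replicate 1 or 3 (edgeR adjusted p of 0.0509 and 0.0697), nor CCN2 without any of the knockdown replicates (0.0704, 0.0539 and 0.113), and exons of both overlap an antisense gene, as those of PDGFRA overlap a gene on the same strand.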

How the data were processed

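The authors deposited whole-number read counts per gene for 6 libraries, unscaled. GRCh38 was the build, and HISAT2 2.0.4, StringTie 1.3.4d, cutadapt 1.9, edgeR and DESeq2 are listed, per the submitters' processing notes. The labels' protocols describe dUTP marking of the second strand. How the counts were made, with which annotation and strand setting, was not given in the sources used here. Gene symbols came from a table of names (42020 of 60612 identifiers matched), coordinates, exon lengths and overlaps from GENCODE 29 (GRCh38), and promoter sequences from RefSeq (GRCh38.p14).

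Counts were fitted across all 17723 genes that passed filterByExpr (minimum count 10) with the two-sided quasi-likelihood test of edgeR 4.0.16 in R 4.3.3, with TMM scaling, Benjamini-Hochberg adjustment and no term other than group. SE is the absolute log2 fold change divided by the square root of F, and 95% intervals use its degrees of freedom. DESeq2 1.42.0 and limma-voom (limma 3.58.1) were alternatives, with other scalings, filters, a replicate block, a loess correction for length and GC content (span 0.3), a covariate from 5 RNAs that lack a poly(A) tail and each library left out. The procedure was also run on simulated counts, drawn with the same dispersion for all genes and without GC deviations between libraries. Only genes with more counts than AREG or ERBB3 were changed there, so that run cannot show how such scarce genes fare. The members, the lists and the alternatives were chosen with earlier results of these data known.

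Named were TEAD3, the members, the other EGF-like ligands, AXL, CCN2 and, of each list, the called genes or else the 3 with the smallest p. Some genes that this rule names are not reported here. Genes named outside this rule were chosen after their values were seen, among them the overlapping genes. Every pair of libraries within a group differed by more than sampling noise (chi-square 23 to 80.6 times its degrees of freedom). The planned search of protein sequences was not run.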

Additional observations from a re-analysis of the deposited data

How the results depend on the processing

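No member was called under any alternative. The number of all genes called, 116 (80 higher and 36 lower), was 31 with no filter, 872 by DESeq2, 197 with robust dispersions and 554 after correction for length and GC (42.4% higher, where it had been 69%). It was 23 with the non-polyadenylated RNA covariate and 27 at an adjusted p under 0.01. Leaving out 1 library gave 20 to 589. Of the pathway genes 3 were called, and 1, AXL, with no filter, with the covariate and at an adjusted p under 0.01, 11 by DESeq2, 6 with robust dispersions, 6 after correction for length and GC, and 0 to 12 without 1 library. Both 0 counts came without knockdown replicate 1 or 3, and the 12 without control replicate 2. In the other cases the cause was not tested.

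Replicate numbers are shared by the groups, but same-numbered libraries did not deviate together (correlations of 0.00896, -0.0318 and 0.0059). With the replicate block 63 of all genes were called and 1 in the pathway lists, AXL, with no member called. Control replicates 2 and 3 correlated best with a library of another number.

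Fold changes changed sign in 20 of 644 gene and setting values, among them those of AREG (0.59) and EREG (-0.31). EGFR was at 0.07 with the covariate and from -0.11 to 0.04 without 1 library. TGFA was at 0.03 with the length and GC correction, 0.0018 with the covariate and -0.09 to 0.1 without 1 library. AREG ranged from -0.13 to 0.87, EREG from -0.65 to 0.05 and BTC from -0.08 to 0.16 without 1 library. EGF was at 0.01 with upper-quartile scaling, 0.0015 with the stricter filter and 0.05 with the length and GC correction, and from -0.17 to 0.1 without 1 library. NRG2 was at 0.06 with the covariate and from -0.1 to 0.11 without 1 library. Of the remaining values, 574 kept direction and side of the threshold, 28 lost a call and 22 gained one. AREG and ERBB3 were not tested under the stricter filter, and at 12 to 79 counts their intervals are wide.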
